A study of Mus musculus with 12 samples.

Results

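Untreated dendritic cells labelled Ythdf1-/- were compared with untreated wild-type cells across all genes of a deposited expression table. The comparison used 4 of the 12 samples of the series, 2 wild-type and 2 Ythdf1-/- labelled RNA-seq libraries of cells cultured alone, chosen by their labels and not by any measured value. All 4 were mouse bone marrow dendritic cells grown with GM-CSF, a cytokine that drives bone marrow precursors towards dendritic cells and other myeloid cells. A further 4 libraries, 2 of each genotype, came from the same kind of culture after overnight exposure to a lysate of necrotic B16-OVA melanoma cells. They were kept in the fit for their spread and give a comparison of the same genotypes that shares no library with the untreated one. The remaining 4 samples (a YTHDF1 immunoprecipitation with its input) were not analysed here. The labels give neither the deleted part of the gene nor the age, sex or number of mice, and nothing in them tells whether replicate libraries were made from different animals or cultures. The p-values therefore measure the spread between these libraries, which may be technical. The growth protocol describes only the lysate culture, and the libraries named alone are called untreated here.

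YTHDF1 is a cytoplasmic protein that binds mRNA carrying N6-methyladenosine (m6A), a base modification written by the METTL3 and METTL14 enzymes, and it is best known for raising the translation of the mRNAs it binds. An RNA-seq comparison does not measure translation. It measures transcript levels, which also reflect how many cells of each type a culture holds. GM-CSF cultures of bone marrow are mixed: besides dendritic cells they hold macrophage-like cells and granulocytes, and dendritic cells in them can mature without an added stimulus. In these bulk libraries, fewer cells of a type and less RNA per cell cannot be told apart.

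The values are log2 levels as the authors deposited them, read here as regularized values scaled for depth. A difference is the mean of the Ythdf1-/- labelled libraries minus the mean of the wild-type libraries on that log2 scale, and a gene is said to rise or fall only where its limma p-value, adjusted by Benjamini-Hochberg over all 11785 genes tested, was under 0.05. Library values ran from 3.24 to 17.88 and library medians from 8.53 to 8.55. The first principal component of the 8 libraries held 49.7% of the variance and the next 27.9%. The table holds no read totals, and sequencing depth is therefore unknown. Genes expressed by dendritic cells, though not necessarily by them alone, were detected in all 4 untreated libraries. Among them were Cd74, the invariant chain of MHC class II (16.40 and 16.54 in untreated wild type, 16.52 and 16.45 in untreated Ythdf1-/- labelled cells), and Flt3, a dendritic cell growth factor receptor (10.32 and 10.41 against 10.77 and 10.76). Lyz2, the macrophage and granulocyte lysozyme, was also high (17.26 and 17.24 against 16.68 and 16.67). The replicate libraries of untreated wild type differed from each other in a way that followed transcript GC content (Spearman correlation across genes -0.698), and those of untreated Ythdf1-/- labelled cells did so with the opposite sign (0.617). The genotype difference itself had a correlation of 0.0612 with GC content.

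The sequences below belong to genes on which the results turn. The first 3 are the 250 bases before the start of Oas3, Cxcl10 and Phf11b, interferon-induced genes that were lower in untreated Ythdf1-/- labelled cells: from RefSeq in build GRCm38.p6, chr5:120777660-120777909, chr5:92348890-92349139 and chr14:59341331-59341580, all on the minus strand. The next pair belong to the granule genes Ngp (chr9:110419558-110419807, plus strand) and Lcn2 (chr2:32387740-32387989, minus strand), which were lower too. Each is written 5′ to 3′ along its gene. Capitals in the first 3 mark GAAA, any 2 bases and GAAA again, the core letters of elements bound by interferon-activated factors. Capitals in Ngp and Lcn2 mark TTGCNNAA or its reverse complement, letters of the kind bound by C/EBP factors, which drive granulocyte genes. Within each list the genes shown are those with the smallest p among the members that fell and have a match in these 250 bases, so they were chosen after their values were seen.
Oas3: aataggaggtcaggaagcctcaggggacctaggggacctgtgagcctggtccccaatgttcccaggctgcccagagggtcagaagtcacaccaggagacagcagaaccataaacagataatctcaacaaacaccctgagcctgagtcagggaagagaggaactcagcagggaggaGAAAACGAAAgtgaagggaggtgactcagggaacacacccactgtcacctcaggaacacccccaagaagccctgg
Cxcl10: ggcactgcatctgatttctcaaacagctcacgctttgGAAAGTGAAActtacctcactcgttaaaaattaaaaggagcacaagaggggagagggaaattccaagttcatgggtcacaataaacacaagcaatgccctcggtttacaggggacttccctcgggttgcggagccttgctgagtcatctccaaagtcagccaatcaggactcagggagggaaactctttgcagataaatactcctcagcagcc
Phf11b: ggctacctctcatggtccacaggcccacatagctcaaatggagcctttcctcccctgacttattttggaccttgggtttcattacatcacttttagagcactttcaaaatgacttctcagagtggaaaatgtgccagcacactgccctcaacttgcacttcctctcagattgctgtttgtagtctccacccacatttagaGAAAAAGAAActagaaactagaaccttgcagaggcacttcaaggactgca
Ngp: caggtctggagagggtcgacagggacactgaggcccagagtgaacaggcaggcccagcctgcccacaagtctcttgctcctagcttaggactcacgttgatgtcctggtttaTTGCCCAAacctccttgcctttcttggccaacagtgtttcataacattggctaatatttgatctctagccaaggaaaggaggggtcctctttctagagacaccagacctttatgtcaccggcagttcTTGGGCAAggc
Lcn2: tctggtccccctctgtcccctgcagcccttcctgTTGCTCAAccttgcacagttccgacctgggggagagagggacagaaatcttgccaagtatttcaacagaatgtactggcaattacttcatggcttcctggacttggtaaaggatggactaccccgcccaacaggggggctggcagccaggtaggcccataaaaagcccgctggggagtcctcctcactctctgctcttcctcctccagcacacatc

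The interferon-type letters start 75 bases before the gene start in Oas3, 213 in Cxcl10 and 50 in Phf11b. Over the 300-base promoters of the RefSeq table (250 bases before to 50 after a start, both strands), these letters occur in 3.99% of 27025 genes and in 3.9% of the 9426 tested genes that have an entry. They occur in 16 of the 36 measured interferon effector genes with an entry (44.4%) and in 15 of the 28 that fell (53.6%). The C/EBP-type letters occur in 12.2% of all genes, in 10.2% of tested genes and in 7 of 24 measured granule genes (29.2%). A match to 1 set of letters can share bases with a match to the other, and a match describes the sequence, not a bound site.

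Mir155 was the microRNA gene among the largest rises, and its mature products are shown so that the seed is visible. They are RefSeq entries on chromosome 16, plus strand, at chr16:84714143-84714165 and chr16:84714182-84714202 of GRCm38.p6, with the seed (bases 2 to 8) in capitals. The RNA-seq value at this locus comes from longer RNA, not from the mature forms.
mmu-miR-155-5p: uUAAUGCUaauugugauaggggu
mmu-miR-155-3p: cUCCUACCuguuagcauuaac

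The targeted gene was examined first. The Ythdf1 row held 9.58 and 9.43 in untreated wild-type libraries and 9.53 and 9.43 in untreated Ythdf1-/- labelled libraries. The groups overlapped, and the difference of -0.03 ± 0.081 (SE; 2 libraries against 2) had an adjusted p of 0.85. With lysate the difference was -0.16, with an adjusted p of 0.202. Neither the way reads were assigned to this row nor the deleted part of the gene is given. This value therefore neither checks the label nor measures YTHDF1 protein. The genotype is therefore used as labelled. Of the 24 measured m6A writers, erasers and readers, 0 rose and 0 fell, and the smallest p among them belonged to the reader Hnrnpa2b1 (0.24 ± 0.088, adjusted p 0.0816).

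Several genes that follow Ythdf1 on its chromosome rose. Of the 10 measured genes that follow Ythdf1 in the reference gene order, 5 rose and 0 fell with a median difference of 0.30, where 7.02% of all tested genes rose. They were Col20a1, a collagen chain (8.49 and 8.51 in wild type, 9.30 and 9.25 in Ythdf1-/- labelled cells, 0.77 ± 0.079, adjusted p 4.13e-05), the kinase genes Ptk6 (0.47) and Srms (0.47), the helicase genes Helz2 (0.31) and Rtel1 (0.49). The groups did not overlap in any of these 5 genes, which held for every gene called untreated. Of the 10 genes that precede Ythdf1, only Mrgbp rose (0.40), while the laminin chain Lama5 (-0.49) and the transporter Slco4a1 (-0.46) fell, where 9.23% of all genes fell. Over 20 genes on each side, 10 rose and 0 fell after Ythdf1, and 2 rose and 2 fell before it. Among those further out was Zbtb46, a transcription factor that marks conventional dendritic cells (9.12 and 9.25 against 9.61 and 9.59, 0.42 ± 0.078, adjusted p 0.00259), which was named after its value was seen. With lysate, 11 of the 20 genes after Ythdf1 rose and 0 fell, where 7.44% of all genes rose in that comparison. Helz2 and Mrgbp lost their calls without wild-type library 1 or Ythdf1-/- labelled library 1, and Lama5 without wild-type library 2.

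**Figure D1:**
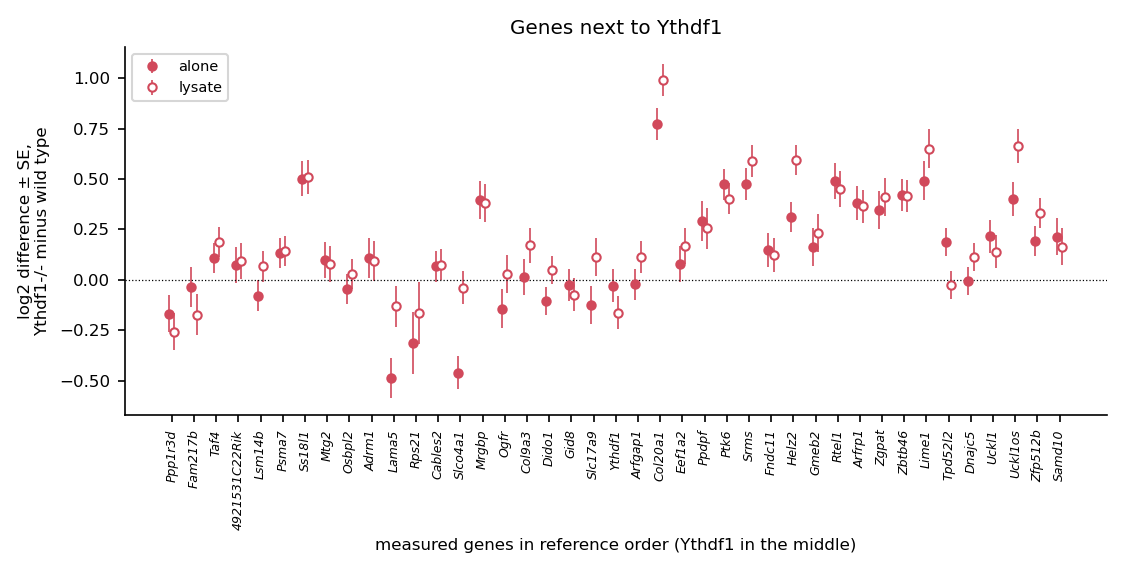
Genotype difference (log2, vertical axis, ± SE) of the measured genes on each side of Ythdf1 in the reference gene order (horizontal axis), untreated and with lysate. Genes after Ythdf1 sit mostly above 0, Col20a1 at 0.77 untreated, while those before it lie on both sides of 0.

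Across all genes, 827 rose (7.02%) and 1088 fell (9.23%) in untreated Ythdf1-/- labelled cells, together 16.2% of the 11785 tested. These shares are the background for every untreated list count. The share that fell was smaller in each fit with a library left out. In all 1915 called genes the 2 libraries of a genotype did not overlap with those of the other. The falls reached further than the rises: 29 genes fell at least 2-fold and 3 rose as much, and at 1.5-fold the counts were 166 and 64. Most differences were small, with a median size of 0.365 among the called genes and a median SE of 0.0878, and the median of all genes was 0.0022. The count rested on the wild-type replicates: it was 1174 without untreated wild-type library 1 and 1190 without library 2.

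The deepest falls were in neutrophil granule genes. S100a8, a subunit of the calcium-binding protein calprotectin, stood at 11.93 and 11.58 in wild type and 10.06 and 10.08 in Ythdf1-/- labelled cells, a difference of -1.68 ± 0.154 (3.21-fold lower, adjusted p 1.66e-05). Its partner S100a9 stood at 12.94 and 12.89 against 11.36 and 11.27 (-1.59 ± 0.104, 3.02-fold lower, adjusted p 1.04e-06). For Camp, which encodes the antimicrobial peptide cathelicidin, the values were 8.79 and 8.95 against 7.24 and 7.34 (-1.58). In all 3 genes the lowest wild-type library was more than 1 log2 unit above the highest Ythdf1-/- labelled library. Ngp, a neutrophil granule protein whose upstream bases are printed above, stood at 11.50 and 11.57 against 10.06 and 9.92 (-1.55 ± 0.072, adjusted p 1.26e-07). Ltf, the iron-binding lactoferrin (-1.36), Lcn2, the siderophore-binding lipocalin (-1.33), Cd177, a neutrophil surface protein (-1.34), and the stefin genes Stfa2 (-1.52), Stfa2l1 (-1.27) and Stfa1 (-1.27) followed. The stefins and Cstdc5 (-1.40) are closely similar copies in a gene cluster, so reads may have been split among them. Hp, which encodes the haemoglobin-binding haptoglobin, fell from 10.27 and 10.39 to 8.92 and 8.84 (-1.45). Retnlg, a resistin-like gene of neutrophils, fell from 8.99 and 8.95 to 7.58 and 7.46 (-1.45). Of 27 measured granule genes, 21 fell and 0 rose, with a median difference of -1.06, against 9.23% of all genes that fell and a median of 0.0022. The 6 that did not pass were Prtn3 (-0.17), Itgb2l (-0.13), Serpinb1a (0.12), Anxa1 (-0.07), Ncf1 (-0.04) and Mpo (-0.01), among which Mpo and Prtn3 encode enzymes of the primary granules made early in granulocyte development. Elane, the elastase of the same granules, fell by 0.27. Leaving out any 1 library left 20 or 21 granule genes called.

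**Figure D2:**
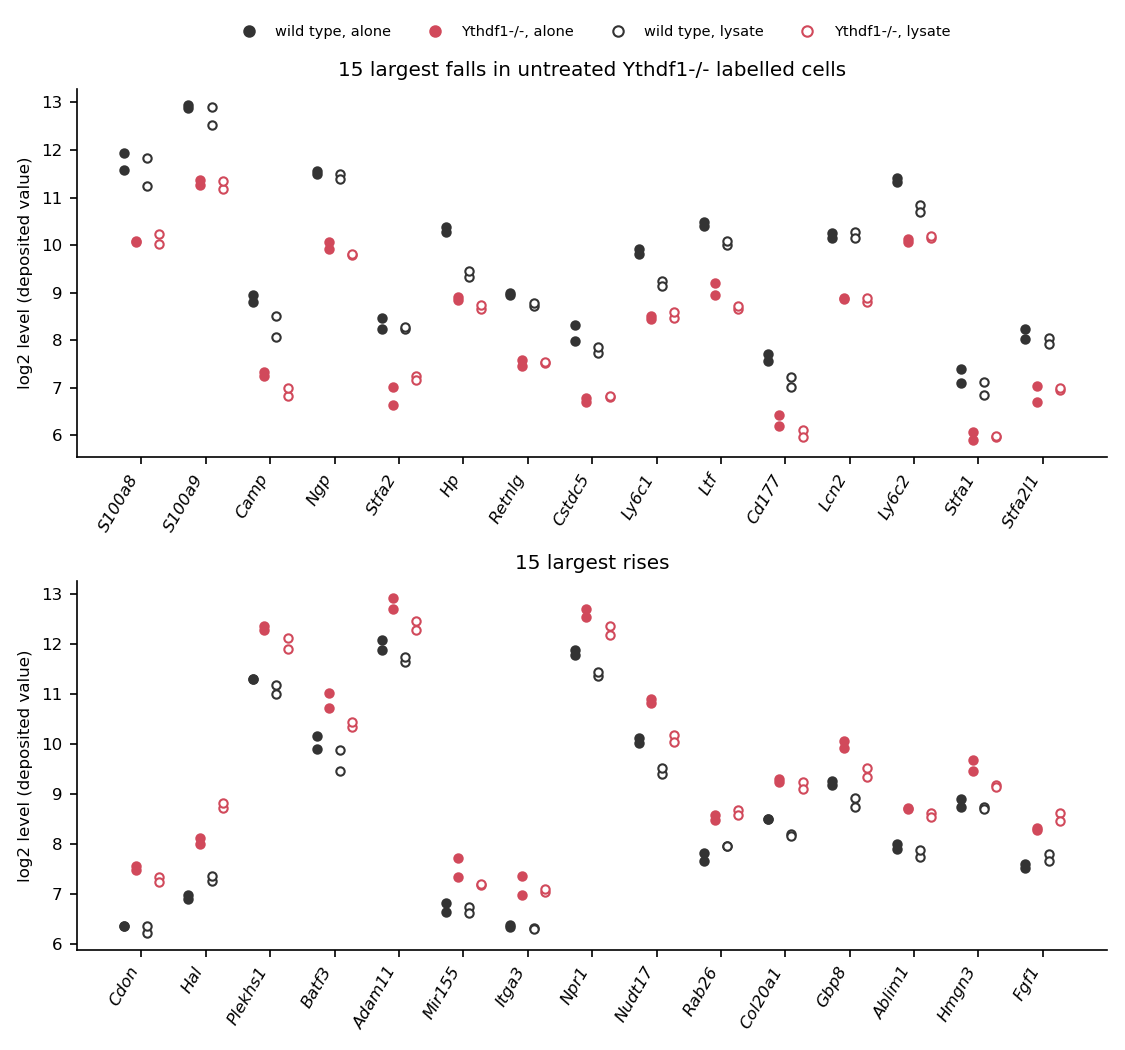
Deposited log2 level (vertical axis) in each of the 8 libraries for the 15 genes with the largest falls and the 15 with the largest rises in untreated Ythdf1-/- labelled cells; filled points are untreated libraries, open points lysate libraries, dark wild type and red Ythdf1-/- labelled. The genes were picked among those whose untreated libraries do not overlap between genotypes, so the gap between filled points follows from the choice. S100a8 stands at 11.93 and 11.58 against 10.06 and 10.08 and Cdon at 6.36 and 6.37 against 7.57 and 7.49.

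Genes that mark whole neutrophils fell with the granule genes. Of 22 measured neutrophil markers 19 fell and 0 rose (median -1.17), and 14 genes stand in both lists. The log2 of their summed linear level was 14.86 and 14.81 in untreated wild type and 13.87 and 13.84 in untreated Ythdf1-/- labelled cells. Beyond granule contents, the falls took in the surface receptors of these cells: Fpr1, a receptor for formylated bacterial peptides, stood at 8.67 and 8.60 against 7.51 and 7.59 (-1.09), the chemokine receptor Cxcr2 at 7.69 and 7.49 against 6.58 and 6.52 (-1.04), and the G-CSF receptor Csf3r at 10.40 and 10.49 against 10.02 and 9.84 (-0.52). Cebpe, a transcription factor needed for the later granules, fell from 5.53 and 5.72 to 4.97 and 4.93 (-0.67, adjusted p 0.000285). The neutrophil markers Ly6g and Cxcr1 were not analysed here. Of the 15 deepest falls 11 are in the neutrophil or granule list, as are 19 of the 29 genes that fell at least 2-fold.

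Of 9 listed eosinophil genes 5 were measured, and all 5 fell (median -0.66). Their levels were low, with list medians of 5.68 and 5.71 in untreated wild type, where library medians were 8.53 to 8.55. Ear2, an eosinophil-associated ribonuclease, stood at 8.63 and 8.69 against 7.65 and 7.73 (-0.97), and Prg2, the granule major basic protein, at 5.22 and 5.35 against 4.84 and 4.55 (-0.59). Ear1 (-0.85), Ear6 (-0.66) and Siglecf (-0.33) completed the list, and Ear genes are closely similar copies that may share reads. The listed eosinophil genes Epx, Prg3, Ccr3 and Il5ra were not among the genes tested, so the list lacks defining members. Only Hdc, histidine decarboxylase, fell among 4 mast cell and basophil markers (-0.68), and 0 of 8 plasmacytoid dendritic cell markers passed. Of the B, T, NK and erythroid markers only 5 were measured, of which Cd4 fell (-0.30) and Car2 rose (0.36), both calls being lost without either untreated wild-type library. With the listed markers of other cell types taken out of the tally, 826 rises and 1044 falls remained. Only the listed genes were removed, so this count does not measure the part of those cells.

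Monocyte genes divided. Of 21 macrophage and monocyte genes, 10 fell and 0 rose (median -0.12), where 9.23% of all genes fell. Ly6c2, which encodes the Ly6C antigen of inflammatory monocytes, stood at 11.33 and 11.41 against 10.13 and 10.07 (-1.27 ± 0.072, adjusted p 3.52e-07), Plac8 at 7.59 and 7.58 against 6.70 and 6.49 (-0.99), and Lyz2 fell by 0.57. The chemokine receptors Ccr2 (-0.69) and Cx3cr1 (-0.76), the M-CSF receptor Csf1r (-0.45), Itgam (-0.42) and the macrophage receptor Adgre1 (-0.44), fell too. These are surface proteins of monocytes and their progeny. Several genes typical of differentiated macrophages did not pass: C1qa (-0.04), C1qb (-0.02), Mrc1 (0.16), Mertk (-0.11) and Cd163 (0.04). All 5 measured Ly6 genes fell (median -0.94), Ly6c1 from 9.81 and 9.93 to 8.51 and 8.44 (-1.39), Ly6i by 0.94, Ly6e by 0.74 and Ly6a by 0.31. Ly6c1 and Ly6c2 are near copies, and their reads may be shared.

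Many interferon-induced genes fell moderately. Of 48 measured interferon effectors, 36 fell and 2 rose with a median difference of -0.36, against 9.23% of all genes that fell and 7.02% that rose. Oasl2, an oligoadenylate synthetase-like gene, stood at 12.33 and 12.31 against 11.74 and 11.72 (-0.60 ± 0.061, 1.51-fold lower, adjusted p 4.13e-05), and Zbp1, a sensor of Z-form nucleic acid, at 10.83 and 10.89 against 10.27 and 10.17 (-0.64). Ms4a4c stood at 9.62 and 9.39 against 8.74 and 8.77 (-0.75) and the exonuclease gene Isg20 at 8.20 and 8.24 against 7.57 and 7.48 (-0.69). These are the members of the list with the smallest p, so a gap that is wide relative to replicate spread follows from their choice. The genes whose upstream bases are printed above fell by 0.55 (Oas3), 0.68 (Cxcl10, a chemokine that attracts T cells) and 0.51 (Phf11b), and the Ifit family fell with them: Ifit1 (-0.53), Ifit2 (-0.54), Ifit3 (-0.46) and Ifit3b (-0.45). The GTPase gene Mx1 (0.52) and Helz2 (0.31), the gene near Ythdf1, rose. The count of falls was 27 without untreated wild-type library 1 and between 29 and 33 without any other single library.

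Related families shared this direction in part. Of 14 measured Schlafen and Ifi200 genes 12 fell and 0 rose (median -0.48). Slfn4, a myeloid Schlafen gene, stood at 11.72 and 11.61 against 10.84 and 10.88 (-0.81 ± 0.068, adjusted p 8.42e-06), Slfn8 fell by 0.67, Slfn1 by 0.59 and Slfn2 by 0.49. Guanylate-binding and immunity-related GTPases, which act on vacuoles that hold microbes, went both ways, with 9 falls and 3 rises among 17. Tgtp2 (-0.56), Irgm2 (-0.50), Gbp7 (-0.49) and Gbp2 (-0.42) fell, while Gbp8 rose from 9.26 and 9.19 to 9.92 and 10.05 (0.76), Gbp11 from 6.47 and 6.53 to 7.08 and 7.12 (0.60), and Gbp4 by 0.51. Gbp genes are closely similar, so reads may have been assigned between them. The interferon-type letters occur in the promoters of 8 of the 9 measured genes of this family that have an entry (88.9%).

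The transcription factors of the pathway did not move as 1 group. Irf7, a factor that is itself induced by interferon and amplifies its response, fell from 12.03 and 12.17 to 11.41 and 11.33 (-0.73 ± 0.071, adjusted p 2.9e-05). The receptor chains Ifngr1 (-0.36) and Ifnar2 (-0.25) also fell. The kinase gene Jak2 (0.35), Irf1 (0.30), and the dendritic cell factors Irf4 (0.34) and Irf8 (0.34) rose, as did Tyk2 (0.24), another Jak kinase. The rise of Jak2 was not called without untreated wild-type library 2. Stat2 (-0.09) and Irf9 (-0.16), members of the interferon-activated complex, did not pass. The count of 5 rises here was 3 without untreated wild-type library 1 and 3 without untreated Ythdf1-/- labelled library 1. Neutrophil and monocyte markers moved with the interferon genes, and their part in these differences was not tested.

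**Figure D3:**
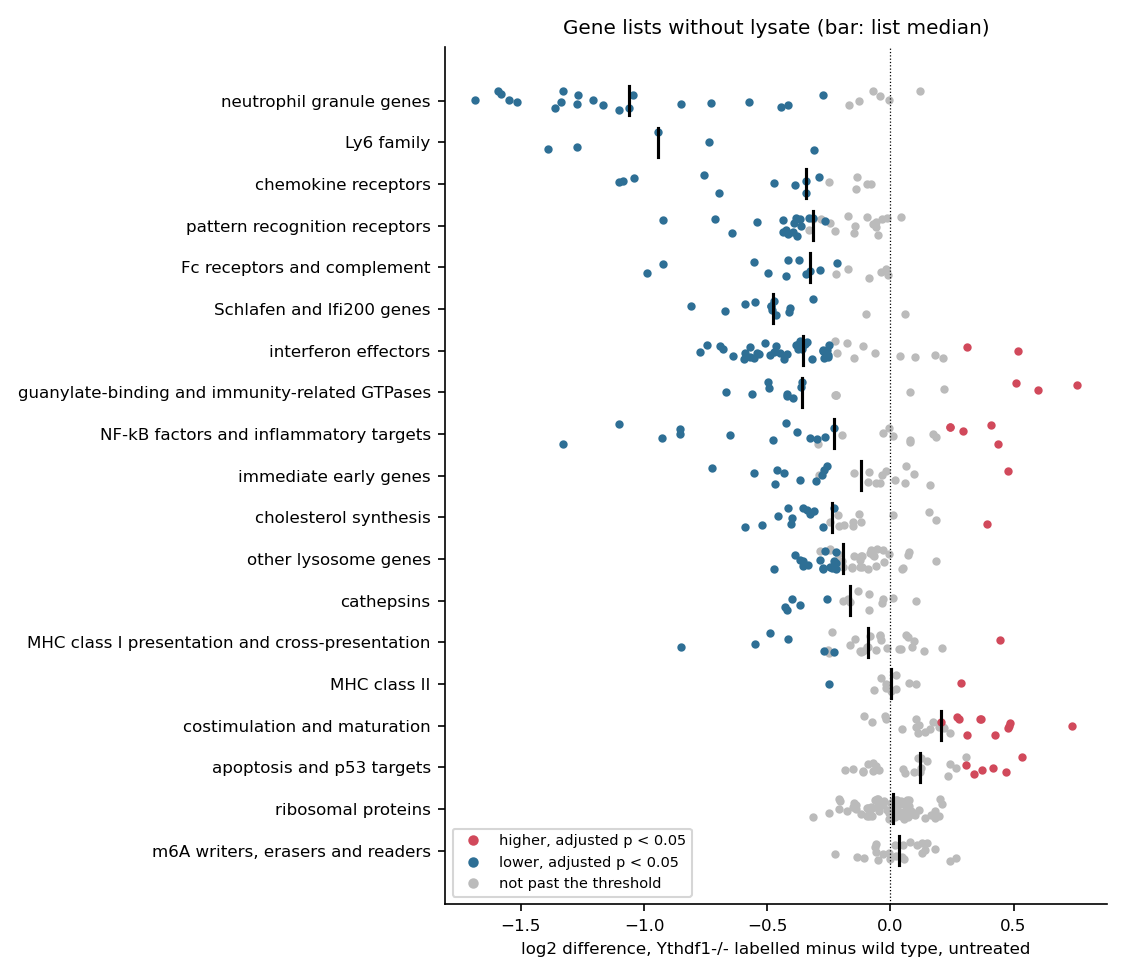
Genotype difference in untreated cells (log2, horizontal axis) of each measured member of 19 gene lists (rows); each point is a gene, coloured where it rose or fell, and the black bar is the list median. Granule genes centre at -1.06, interferon effectors at -0.36 and costimulation and maturation genes at 0.20.

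Receptors that sense microbes and chemokines were lower. Among all genes tested, 9.23% fell and 7.02% rose. Of 33 pattern recognition receptors and adaptors 17 fell and 0 rose (median -0.31; 11 fell without untreated wild-type library 1). Tlr2, a receptor for bacterial lipoproteins, stood at 11.40 and 11.38 against 10.46 and 10.47 (-0.92 ± 0.063, adjusted p 1.61e-06), Cd14, the lipopolysaccharide co-receptor, at 12.39 and 12.47 against 11.85 and 11.73 (-0.64). The inflammasome gene Nlrp3 fell by 0.54. Tlr4 (-0.39), Tlr7 (-0.38), Tlr9 (-0.36) and the adaptor Myd88 (-0.26) fell by less. Tlr3 (-0.33), which senses double-stranded RNA, and Sting1 (-0.09) and Cgas (-0.14) of the DNA-sensing pathway did not pass. Of 15 chemokine and chemoattractant receptors 10 fell and 0 rose (median -0.34), and Fpr2, the second formyl peptide receptor, stood at 9.71 and 9.37 against 8.34 and 8.54 (-1.10). Of 17 Fc receptor and complement genes 11 fell and 0 rose (median -0.33): complement C3 stood at 12.53 and 12.61 against 11.59 and 11.57 (-0.99), factor B (Cfb) at 11.64 and 11.72 against 10.77 and 10.74 (-0.92), and the shared Fc receptor chain Fcer1g fell by 0.55. Several of these genes are known to be expressed by neutrophils and monocytes, whose markers moved the same way; the part of those cells was not tested.

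Inflammatory genes went both ways. Il1b, which encodes interleukin-1 beta, stood at 11.30 and 11.21 against 10.45 and 10.36 (-0.85 ± 0.068, adjusted p 5.45e-06), and Acod1, the enzyme that makes itaconate, at 9.70 and 9.64 against 8.83 and 8.65 (-0.93). The gelatinase gene Mmp9, also a granule gene, stood at 8.94 and 9.07 against 7.95 and 7.86 (-1.10). Over the 27 genes of the list 13 fell and 5 rose, where 9.23% of all genes fell and 7.02% rose. The 5 rises were in the NF-kB inhibitors Nfkbia (0.41), Nfkbib (0.44) and Nfkbie (0.24), the subunit gene Nfkb2 (0.29) and the adhesion molecule Icam1 (0.24). Without untreated wild-type library 1 or untreated Ythdf1-/- labelled library 1 only 1 of the 5 rises was called, and 2 were called without either lysate Ythdf1-/- labelled library. The chemokines Cxcl2 (-0.51), Ccl3 (-0.45), Ccl9 (-0.43) and Ccl6 (-0.36) fell, among 6 falls and 1 rise in 14 chemokine genes. Of 24 immediate early genes 10 fell, among them Klf2 (-0.73), Nr4a1 (-0.55) and Fosl2 (-0.43), and only Nr4a2 rose (10.50 and 10.46 against 11.01 and 10.91, 0.48).

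Rises were smaller and fewer, and were led by genes with varied functions. Cdon, a co-receptor for hedgehog ligands, stood at 6.36 and 6.37 in wild type and 7.57 and 7.49 in Ythdf1-/- labelled cells (1.17 ± 0.09, 2.25-fold higher, adjusted p 4.67e-06). Hal, the histidine-degrading enzyme, stood at 6.91 and 6.98 against 8.12 and 8.0 (1.12, 2.17-fold) and Plekhs1 at 11.29 and 11.31 against 12.36 and 12.29 (1.02, 2.03-fold). These were the 3 genes that rose at least 2-fold. Batf3, a transcription factor required for cross-presenting dendritic cells, stood at 9.90 and 10.17 against 11.02 and 10.73 (0.84 ± 0.131, adjusted p 0.000779), with a wider replicate spread than Cdon. Mir155 stood at 6.82 and 6.64 against 7.34 and 7.73 (0.81 ± 0.120, adjusted p 0.00054), and miR-155 is known to be induced in activated myeloid cells. Next came Adam11 (0.83), the integrin chain Itga3 (0.80), the natriuretic peptide receptor Npr1 (0.80), Nudt17 (0.79), Rab26 (0.79), Col20a1 (0.77), Gbp8 (0.76), Ablim1 (0.75), Hmgn3 (0.74) and the growth factor Fgf1 (0.74).

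A part of the maturation genes of dendritic cells rose. Of 28 costimulation and maturation genes 11 rose and 0 fell, with a median difference of 0.20, against 7.02% of all genes that rose. Cacnb3, a calcium channel subunit found in mature dendritic cells, stood at 14.16 and 14.30 against 15.03 and 14.90 (0.74 ± 0.076, adjusted p 4.13e-05). Cd80, a ligand of the T cell receptor CD28, stood at 10.53 and 10.47 against 10.84 and 11.12 (0.48), and Socs2, a cytokine signalling inhibitor, at 12.26 and 12.12 against 12.64 and 12.69 (0.48). The groups did not overlap in these 3 genes, which held for every gene called untreated. Birc2 (0.49), the NF-kB subunit Relb (0.43), Il12b, which encodes the shared p40 subunit of IL-12 and IL-23 (0.37), Fscn1, an actin bundler of mature dendritic cells (0.36), Traf1 (0.31), Cd83 (0.28), Cd40 (0.27) and Cd274, which encodes PD-L1 (0.21), completed the 11. Cd86 (-0.02), Ccr7 (0.20), Ccl22 (-0.07), Il6 (0.10) and Tnf (0.05) did not pass. The count was 7 without either of the untreated wild-type libraries.

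Markers of conventional dendritic cells showed no common direction, with 5 rises and 4 falls among 18 and a median of 0.00. Over all genes 7.02% rose and 9.23% fell. Flt3 (0.41), Zbtb46 (0.42), Irf4, Irf8 and Batf3 rose. Those are factors and a receptor of dendritic cell development. Wdfy4, needed for cross-presentation (-0.49), Ffar2 (-0.46), Itgax, which encodes CD11c (-0.33), and Sirpa (-0.24) fell. The surface markers Clec9a (-0.03), Itgae (0.04) and Cd24a (-0.08) of the cross-presenting subset did not pass, and Xcr1 was not analysed here.

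Antigen presentation by MHC class II was nearly level. Of 11 measured genes 1 rose and 1 fell, with a median difference of 0.00. The chains H2-Aa (15.36 and 15.38 against 15.39 and 15.39, 0.02), H2-Ab1 (-0.04) and H2-Eb1 (0.11), the invariant chain Cd74 (0.02) and the master regulator Ciita (-0.02) did not pass. H2-DMa, a chain of the peptide exchange factor, fell from 11.33 and 11.42 to 11.16 and 11.10 (-0.25, adjusted p 0.0245), and H2-Oa, a chain of its inhibitor, rose from 8.36 and 8.45 to 8.76 and 8.61 (0.29, adjusted p 0.0305). H2-Oa lost its call under 7 of 19 other settings, among them without either untreated wild-type library, and H2-DMa under 4, including without untreated wild-type library 2 and without untreated Ythdf1-/- labelled library 2. H2-DMb1 (0.00), H2-DMb2 (-0.02), H2-Ob (0.08) and H2-Eb2 (-0.07) did not pass. Of 31 genes for class I presentation and cross-presentation, 6 fell and 1 rose (H2-Q7, 0.44), where 9.23% of all genes fell and 7.02% rose. The deepest falls were in the NADPH oxidase of phagosomes and its activator: Cybb stood at 13.89 and 13.76 against 12.96 and 12.99 (-0.85 ± 0.065, adjusted p 4.67e-06), Rac2 at 11.05 and 11.17 against 10.58 and 10.54 (-0.55) and Ncf4 at 11.61 and 11.70 against 11.29 and 11.19 (-0.41). Cybb is also a granule gene of neutrophils. The peptide transporter genes Tap1 (-0.04) and Tap2 (0.09) and the class I heavy chains H2-K1 (-0.11) and H2-D1 (-0.08) did not pass.

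Cathepsins are proteases of endosomes and lysosomes that break down engulfed antigen. Of 15 measured cathepsins, cystatins and legumain, 5 fell and 0 rose, with a median of -0.17. Over all tested genes 9.23% fell, the background for this list and for the other lysosome genes. Ctss, which trims the invariant chain, stood at 16.13 and 16.04 against 15.64 and 15.69 (-0.42 ± 0.069, adjusted p 0.00117) and Ctsc, which activates granule serine proteases, at 12.58 and 12.49 against 12.06 and 12.16 (-0.43). Ctsk stood at 9.73 and 9.80 against 9.50 and 9.30 (-0.37) and Ctse at 7.01 and 6.98 against 6.55 and 6.63 (-0.40). All 4 were apart between genotypes, as was every gene called untreated. The inhibitor gene Cstb fell by 0.26. Ctsb (16.17 and 16.15 against 16.09 and 16.05, -0.09), Ctsd (-0.17), Ctsl (0.11), Ctsh (-0.13), Ctsz (-0.19), Ctsa (-0.17), Ctso (-0.09), Ctsf (-0.03), Cst3 (-0.03) and Lgmn (0.01) did not pass. Ctsk lost its call without untreated wild-type library 2 or untreated Ythdf1-/- labelled library 2, Ctse without untreated wild-type library 1, Cstb under 8 of 19 other settings, and Ctss under quantile normalization. The count was 3 without untreated wild-type library 1, untreated wild-type library 2 or untreated Ythdf1-/- labelled library 2. Of 47 other lysosome genes 16 fell and 0 rose (median -0.19), led by the ganglioside activator Gm2a (13.80 and 13.79 against 13.35 and 13.31, -0.47) and the mannosidase Man2b1 (-0.37). That count was 5 without untreated wild-type library 1, 7 without library 2, 9 without untreated Ythdf1-/- labelled library 1 and 8 without either lysate Ythdf1-/- labelled library.

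**Figure D4:**
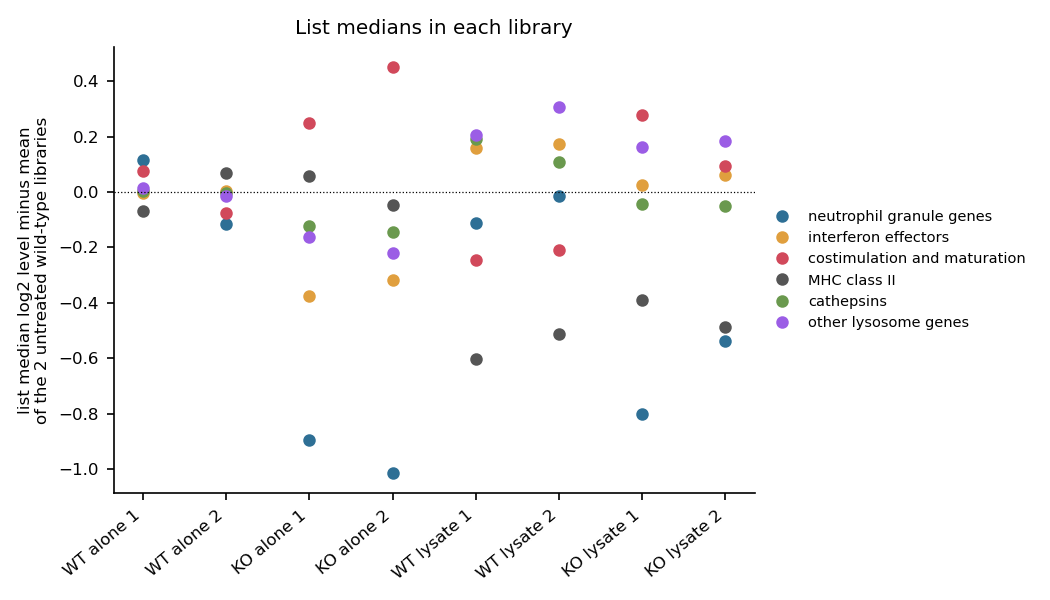
List median of the deposited log2 level in each library (horizontal axis) minus the mean of the 2 untreated wild-type libraries, for 6 gene lists. The granule gene medians were 8.46 and 8.23 in untreated wild type and 7.45 and 7.34 in untreated Ythdf1-/- labelled libraries, and the interferon effector medians 10.90 and 10.90 against 10.53 and 10.58.

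Metabolic lists showed more falls than rises. Of 24 cholesterol synthesis genes 12 fell and 1 rose (median -0.24): Fdps (8.87 and 8.95 against 8.34 and 8.44, -0.52) and the feedback regulator Insig1 (-0.40) fell, and Pmvk rose (0.39). That count was 6 without untreated wild-type library 1 and 7 without library 2. Among 24 lipid handling genes 6 fell, with Apoc2 at 10.12 and 10.21 against 9.53 and 9.31 (-0.75) and the receptor Axl, which binds apoptotic cells through its ligand, at 12.55 and 12.57 against 11.98 and 11.95 (-0.59). Gas6, the ligand of Axl, rose (8.27 and 8.38 against 8.95 and 8.88, 0.59). Of 31 glycolysis and hypoxia genes 7 fell, led by the glucose transporter Slc2a3 (-0.79) and Aldoc (-0.57), and 2 rose, among them Pfkfb3 (0.38); 4 falls were called without untreated wild-type library 2. Of 29 NRF2 and iron genes 8 fell and 1 rose, with 3 falls called without untreated wild-type library 2, 4 without untreated Ythdf1-/- labelled library 2 and 5 without untreated wild-type library 1. Of 27 apoptosis and p53 genes 6 rose and 0 fell, with Pmaip1 at 10.94 and 10.77 against 11.32 and 11.47 (0.53), and 3 rose without untreated wild-type library 1. Proliferation genes showed 5 falls and 2 rises among 35, beside 9.23% and 7.02% of all genes, and nothing is read from counts this near the background. Mki67, a marker of cycling cells, stood at 9.22 and 9.14 against 8.58 and 8.53 (-0.62), and 3 falls were called without either untreated wild-type library or untreated Ythdf1-/- labelled library 1.

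Housekeeping lists gave the contrast to these. Of 76 ribosomal protein genes 0 passed in either direction (median 0.01), and the same held for 54 genes of oxidative phosphorylation (median -0.08). Of 38 translation factors only Pabpc4, a poly(A)-binding protein, rose (0.24, adjusted p 0.0336), and it lost its call under 7 of 19 other settings. Of 4 measured Y-linked genes and 7 melanocyte genes 0 passed.

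The lysate-treated libraries give the same genotype difference in cells that share no library with the untreated ones, although the spread was estimated over all 8. There 877 genes rose and 642 fell, 7.44% and 5.45% of those tested. Of the 827 genes that rose untreated, 505 also rose with lysate (61.1% of the first list and 57.6% of the second), and 811 had a positive difference. Of the 1088 that fell untreated, 419 also fell with lysate (38.5% and 65.3%), and 999 had a negative difference. Only Ly6a fell untreated (-0.31) and rose with lysate (0.26), and 0 genes did the opposite. Granule genes fell as often with lysate, 21 of 27, with a median of -0.79; Ngp stood at 11.49 and 11.39 against 9.80 and 9.80 there (-1.64). Of the maturation genes 14 of 28 rose with lysate, and Cacnb3 differed by 0.70. Of the interferon effectors, however, 9 of 48 fell and 2 rose with lysate, with a median of -0.11, and Schlafen and Ifi200 genes gave 5 falls of 14. 0 of the 48 interferon effectors passed the test of the difference between the untreated and lysate effects, so these counts do not show that the effects differ. Of 15 cathepsin-list genes 10 fell with lysate, among them Ctsd (-0.31), Ctsl (-0.22) and Lgmn (-0.25), which did not pass untreated, and here too 0 passed the test of the difference.

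**Figure D5:**
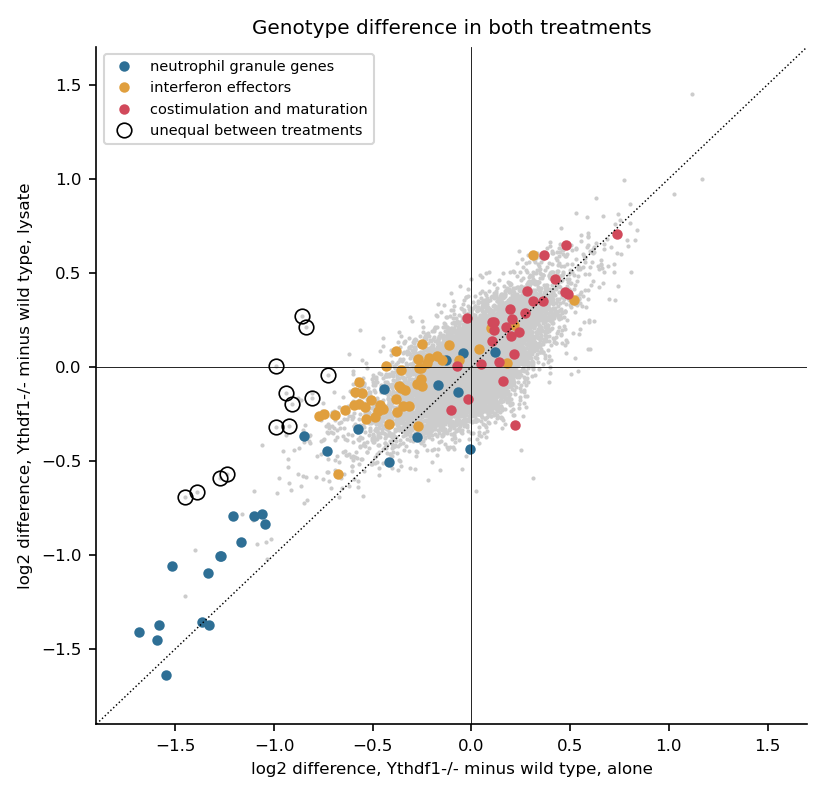
Genotype difference untreated (horizontal axis) against with lysate (vertical axis), both log2, for each tested gene in grey; colours mark granule, interferon effector and maturation genes, circles the 13 genes whose differences were unequal, and the dotted line equality. Granule genes lie low on both axes, with medians of -1.06 untreated and -0.79 with lysate, and interferon effectors have medians of -0.36 and -0.11.

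The test of unequal genotype effects called 13 genes, 0.11% of those tested, and in all 13 the untreated difference was the more negative. Irf7 fell by 0.73 untreated, while with lysate it stood at 11.83 and 11.91 in wild type and 11.81 and 11.85 in Ythdf1-/- labelled cells (-0.04). Slfn4 fell by 0.81 untreated and differed by -0.17 with lysate (11.54 and 11.57 against 11.44 and 11.35). In both genes the genotypes were apart untreated. With lysate the libraries of the genotypes overlapped in Irf7 but stayed apart in Slfn4. Neither lysate difference passed (adjusted p 0.735 for Irf7 and 0.125 for Slfn4). Ly6c2 and Ly6c1 fell in both settings, by 1.27 and 1.39 untreated and by 0.59 and 0.66 with lysate. Hp, C3, Cfb and Trem1, a receptor that amplifies neutrophil and monocyte responses, likewise fell in both, by more in untreated cells. Hspa1a and Hspa1b, the inducible HSP70 pair whose near-identical copies can share reads, fell untreated (-0.84 and -0.86) and differed by 0.21 and 0.27 with lysate. Apoa1, Ly6i and Siglec1 (-0.91 untreated, -0.20 with lysate) made up the rest. Apoa1 was at the table's lowest value of 3.24 in 6 of the 8 libraries, so its difference of -0.99 untreated rests on 4.29 and 4.17 in untreated wild type. The 13 calls depended on the libraries used: 0 were called without wild-type lysate library 1 or without either Ythdf1-/- labelled lysate library, and 32 without untreated Ythdf1-/- labelled library 1. At an unadjusted p under 0.05, 980 genes passed.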

How the data were processed

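Total RNA of mouse GM-CSF bone marrow dendritic cells was sequenced, and the authors deposited 1 table of log2 values with Entrez gene rows and 8 library columns. Per the submitters' processing notes, STAR, DESeq2 and deepTools were used with build mm9; their versions, and any counting tool, strand setting, annotation or filter, are not stated there. The deposited values were read as the authors' regularized log2 output of DESeq2, an inference from the table, so folds of low genes may be shrunk. Symbols were matched for 11744 of 11786 rows. No counts were available to the tests, so depth is unknown and count models were not used.

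Genes with a largest group mean of at least 4 were kept (11785). limma 3.58.1 (R 4.3.3) with trend fitted the 4 group means over 8 libraries, 4 residual and 9.33 prior degrees of freedom, with Benjamini-Hochberg adjustment over all genes at 0.05 and 2 libraries a group. The script was tested on simulated data. Named genes were Ythdf1, the 15 largest rises and 15 largest falls with libraries apart, up to 4 smallest-p members of each list, all cathepsin and MHC class II genes, 10 neighbours each side of Ythdf1 and the 10 smallest-p unequal effects; other genes were named after their values were seen. The comparison and the gene lists were chosen with earlier results of these data known. List counts cover only measured genes (915 of 1029 entries). Alternatives covered filters, normalization, trend, GC and length, replicate block, threshold, samples fitted and each library left out. A few results that fall under withheld items are not reported here.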

Additional observations from a re-analysis of the deposited data

Results flagged for a closer look

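In 13 genes the genotype difference (Ythdf1-/- labelled minus wild type, log2) was unequal between untreated and lysate-treated cells, by limma's test of the difference of the 2 effects with Benjamini-Hochberg adjustment over all genes. The untreated minus lysate value was -0.99 for the apolipoprotein gene Apoa1 (adjusted p 0.00467), -0.68 for Irf7, -0.76 for Hp, -0.68 for Ly6c2, -0.64 for Slfn4, -0.67 for C3, -0.61 for Cfb and -1.05 for Hspa1a (adjusted p 0.026 for these 7). It was -0.73 for Ly6c1 (adjusted p 0.0341) and -1.13 for Hspa1b (adjusted p 0.0416). For Trem1 it was -0.67, for Ly6i -0.80 and for Siglec1, a sialic acid-binding macrophage receptor, -0.71 (adjusted p 0.0481 for these 3). Irf7, Slfn4, Ly6i and Siglec1 are known interferon-induced genes, while Hp, Trem1, C3 and Cfb belong to inflammatory and acute phase responses. Trem1, Ly6i and Siglec1 were named after their values were seen.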

How the results depend on the processing

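The untreated comparison called 1915 genes, and the number was 2918 with the trend on GC content and length removed, 1196 with only the 4 untreated libraries fitted, 956 at an adjusted p under 0.01, and 1174 to 1865 with each library left out in turn, the lowest without untreated wild-type replicate 1. The lysate comparison called 1519 genes, and the number was 2701 with the GC and length trend removed, 526 at 0.01, 2427 at 0.1, and 193 to 2057 with each library left out. The 13 unequal effects became 8 with a largest group mean of at least 6, 1 without the trend of variance on level, 97 with the GC and length trend removed, 1 at 0.01, 21 at 0.1, and 0 to 32 with each library left out. The cause of these shifts was not tested, beyond the fewer samples or other thresholds themselves.

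The labels do not state whether same-numbered libraries belong together. Deviations of same-numbered untreated libraries correlated at -0.611 between genotypes, and those of lysate libraries at 0.0991. Between treatments the correlation was 0.259 in wild type and -0.0483 in Ythdf1-/- labelled cells. The untreated replicate differences also followed GC content, so these values cannot show whether the numbers pair the libraries. A replicate block gave 1540 untreated calls, 1086 with lysate and 1 unequal effect; with the block and the GC and length trend removed together these were 2814, 2585 and 84. A block with the untreated Ythdf1-/- labelled numbers exchanged, added after the data were seen, gave 2750, 2638 and 54.

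Of 210 named genes, 145 were called untreated; 122 kept their call under each of the 19 settings that tested them (genes with a largest group mean under 6 or no GC value were not tested under the settings that need these), and 0 changed direction while called. Depth is unknown, so no limit from counting can be given.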
